A study of Mus musculus with 55 samples.

Results

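The 9 mice compared here were fed the AIN-76A diet and received the same concentration of sodium arsenite, 10 ppb, for 5 weeks by different routes, 5 mice in the food (replicates B, C, D, E and F) and 4 mice in the drinking water (replicates A, C, D and E). They were chosen by diet, concentration and route alone, from 55 mice in the series. All were male C57BL/6 mice (C57BL/6J in the study's methods), 6 weeks old at the start, that spent 2 weeks on AIN-76A, a purified and defined diet, before arsenite was given. For the food group the pellets were made up again with the arsenite mixed in. Total RNA of frozen lung from each mouse was hybridized to 1 Affymetrix Mouse Genome array, and the values below are log2 expression values, so that a difference of 1 is a doubling. The groups were matched by concentration, and the amount eaten or drunk was not analysed here. The comparison asks whether lung expression differed with the route at 1 nominal concentration, and it uses no control mice. The 5 unexposed AIN control mice and the 10 mice given 10 ppb in food or water on LRD-5001, a regular laboratory chow, are shown beside it as background.

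The genes described below belong mainly to neutrophils, platelets and interleukin-1 signaling. Neutrophils are short-lived phagocytes that carry granules of proteases and antimicrobial proteins, and a large pool of them rests in the capillaries of the lung. Platelets carry adhesion receptors, the ADP receptor P2RY12 and granules of chemokines such as PPBP and PF4. Interleukin-1β, the product of Il1b, is made by activated myeloid cells and acts through its receptor, MYD88 and TRAF6, a route shared with Toll-like receptors. In RNA of whole lung, a change in the number of such cells and a change in the RNA of each cell cannot be told apart.

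Tissue markers set water mice A and E apart, which was known from earlier work on these data. Lung markers were present in all 9 mice. The mean level over the alveolar type II cell genes, which include the surfactant proteins, was 11.84 to 12.01 in food mice and 11.42, 11.96, 11.96 and 11.11 in water mice A, C, D and E. Fat genes averaged 10.43 in water A and 8.84 in water E, against 5.31 and 5.45 in water C and D and 4.94 to 6.49 in food mice. Water A was also the 1 mouse of the 9 with skeletal muscle genes, at 9.65 against 3.87 to 4.37 in the others. Water E was the 1 mouse with thymus genes, at 9.77 against 4.57 to 5.40, and its T cell genes stood at 9.47. The brown fat uncoupling protein Ucp1 was at 12.03 and 9.99 in water A and E and at or below 5.44 in the other 7 mice, the muscle actin Acta1 at 12.35 in water A and at or below 4.00 elsewhere, and the lymphocyte recombinase gene Rag1 at 11.49 in water E. Of the background mice, AIN control E carried skeletal muscle genes at 8.25, with the other controls at 3.85 to 4.60. Each result is therefore given for all 9 mice and for the 7 that remain without water A and E. Water D departed too, though not in these markers: 1053 probe sets lay over 1 log2 unit from the mean of the food mice, against 42 in water C, 73 to 224 in single food mice, 1855 in water A and 3672 in water E. The array of water D also had the narrowest spread of values of the 9, with an interquartile range of 3.508 against 3.748 to 3.883 in the others. What part this had in the departure of water D was not tested. The 7-mouse comparison thus rests on 2 unlike water mice.

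No probe set passed the test between the routes. Of 45037 probe sets tested with limma, 0 had an adjusted p below 0.05 (0.0%) in the 9 mice, where the smallest adjusted p was 0.773, and 0 (0.0%) in the 7 mice, where it was 0.999. At an unadjusted p below 0.05, 2308 probe sets (5.12%) were higher and 528 (1.17%) lower with food in the 9 mice, and 775 (1.72%) and 509 (1.13%) in the 7 mice. The mice of the groups did not overlap for 493 probe sets higher with food (1.09%) and 160 lower (0.355%) among 9 mice, and for 1775 (3.94%) and 941 (2.09%) among 7 mice. By size, 97 probe sets were over 1 log2 unit higher with food and 262 lower in the 9 mice. All 262 had water A or E as their highest water mouse, and 0 of them stayed over 1 log2 unit lower in the 7 mice, whereas 13 of the 97 did. The unadjusted total of 2836 depended on single mice, being 6061 without water C, 4679 without water D, 1860 without water A, 1626 without food D and 1610 without food F. In the 7 mice it was 9254 instead of 1284 without water C. The rank product is the method the study used for exposed against control mice, at a p below 0.05. Here its cutoff was an estimated share of false positives below 0.05, from 100 random orderings of the values within each array. The counts are therefore not comparable with those of the study. It called 328 probe sets in the 9 mice, of which 327 were higher with food, and 37 in the 7 mice, all 37 higher. The 1 lower probe set was Ucp1, and the lowest water mouse was D for 31 of the 37. The genes below are therefore given as measured levels, and none of them was called by the limma test in either comparison.

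Il1b, the gene of interleukin-1β, had the smallest unadjusted p of the named genes in the 9 mice. It stood at 9.32, 9.51, 9.01, 9.51 and 9.40 in food mice B to F and at 7.86, 8.28, 8.56 and 7.81 in water mice A, C, D and E. Every food mouse was above every water mouse, with water A and E the lowest of all. The difference was 1.22 ± 0.17 (SE; 2.33-fold) in the 9 mice and 0.93 ± 0.16 (1.90-fold) in the 7 mice. Limma's adjusted p was 0.773 and 0.999. The gene was named by a rule that asks for groups without overlap, so the lack of overlap is a description. The 5 control mice spanned 8.51 to 10.67, a range that takes in all food mice and water D, so that the food mice lay within the unexposed mice and 3 of the water mice below them.

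The promoter windows of the genes that lead these results are printed here to show which short motifs the neutrophil and platelet genes described next hold near their starts. Each runs 5′ to 3′ on the gene's own strand from 250 bases before to 50 bases after the RefSeq start, in build GRCm38.p6: Ngp at chr9:110419558-110419857 on the plus strand, Mmp8 at chr9:7558179-7558478 on the plus strand, Il1b at chr2:129371090-129371389 on the minus strand and Ppbp at chr5:90768268-90768567 on the plus strand. Capitals mark TTNNGCAA, searched on both strands as a C/EBP type motif, in Ngp and Mmp8, and TATAAA, searched on the gene strand, in Il1b and Ppbp.
Ngp: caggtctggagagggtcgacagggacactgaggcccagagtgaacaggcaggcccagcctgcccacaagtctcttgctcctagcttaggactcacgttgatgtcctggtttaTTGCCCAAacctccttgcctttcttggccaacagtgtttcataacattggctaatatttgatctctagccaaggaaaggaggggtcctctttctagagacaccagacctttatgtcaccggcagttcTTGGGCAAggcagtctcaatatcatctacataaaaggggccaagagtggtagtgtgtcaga
Mmp8: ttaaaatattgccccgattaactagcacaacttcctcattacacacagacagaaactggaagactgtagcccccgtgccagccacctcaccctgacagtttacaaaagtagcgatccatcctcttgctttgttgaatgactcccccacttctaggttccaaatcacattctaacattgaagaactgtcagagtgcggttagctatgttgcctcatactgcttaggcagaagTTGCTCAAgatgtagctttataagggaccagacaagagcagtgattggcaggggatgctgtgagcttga
Il1b: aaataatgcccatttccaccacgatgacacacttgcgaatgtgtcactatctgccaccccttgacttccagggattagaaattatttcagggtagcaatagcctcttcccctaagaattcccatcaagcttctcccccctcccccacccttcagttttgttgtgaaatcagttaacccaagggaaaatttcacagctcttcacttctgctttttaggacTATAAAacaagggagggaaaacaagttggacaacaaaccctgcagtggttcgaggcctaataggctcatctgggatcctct
Ppbp: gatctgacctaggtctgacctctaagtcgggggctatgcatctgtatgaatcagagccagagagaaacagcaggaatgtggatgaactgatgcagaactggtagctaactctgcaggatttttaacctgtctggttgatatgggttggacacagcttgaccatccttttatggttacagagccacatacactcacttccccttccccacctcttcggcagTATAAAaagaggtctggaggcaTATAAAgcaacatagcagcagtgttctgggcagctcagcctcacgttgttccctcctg

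Of the 14 neutrophil genes listed 13 were measured, and 12 of these had a window in RefSeq. TTNNGCAA was in 5 of these 12 (41.7%), in 1 of 8 platelet gene windows (12.5%) and in 10.8% of the 32851 windows of all genes. GAGGAA, a PU.1 type motif searched on both strands, was in 8 of 12 (66.7%), 4 of 8 (50.0%) and 28.3%. TATAAA was in 3 of 12 (25.0%), 2 of 8 (25.0%) and 8.32%. In Ngp the copies of TTNNGCAA begin 138 and 11 bases before the start, and in Il1b the TATAAA begins 31 bases before it. These are letter matches only.

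Neutrophil genes were the marker list with the largest median difference in favor of food. The median over the 13 genes measured was 0.86 in the 9 mice and 0.72 in the 7 mice, against 0.02 and 0.03 over 18193 genes. With 9 mice 12 of the 13 were higher with food, 10 of them at an unadjusted p below 0.05 and 5 without overlap. Over all 18193 genes 886 were higher at that p and 183 without overlap. With 7 mice all 13 were higher, 8 at that p (308 of 18193) and 6 without overlap (678 of 18193). The mean level over the list was 7.88, 7.43, 7.13, 7.41 and 7.03 in food mice B to F and 6.76, 6.46, 6.36 and 6.97 in water A, C, D and E, so that all food mice were above all water mice. Control mice A, C, D, E and F were at 6.36, 9.27, 6.88, 8.11 and 8.10 and thus spread wider than both groups together.

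Within the list, the granule protein genes Ngp and Camp gave the largest differences, and with Ltf the least steady ones. Ngp, neutrophilic granule protein, was at 9.08, 8.04, 8.36, 8.51 and 6.73 in food mice and 7.13, 4.58, 4.55 and 7.91 in water mice. Water C and D were the lowest mice, whereas water A and E lay above food F. The difference was 2.10 ± 0.74 in the 9 mice (exact permutation p = 0.0556) and 3.58 ± 0.50, or 11.9-fold, in the 7 mice, for which it was named. Water C and D lay near the medians of their arrays, 4.275 and 4.346, so the size of that fold is uncertain. In the 7 mice limma called Ngp, and no other probe set, with array batch as a block (3.87, adjusted p = 0.00574). That fit rests on food D against water C and food E against water D, since no other batch held both routes among the 7 mice. Limma also called Ngp alone without food F, its lowest food mouse (3.93, adjusted p = 0.0102), and the rank product listed it. Camp, the cathelicidin antimicrobial peptide, was at 7.58, 6.81, 7.14, 7.03 and 5.39 with food and 5.75, 4.11, 5.39 and 6.88 with water, a difference of 1.26 ± 0.55 and, in the 7 mice, 2.04 ± 0.53. For Camp too, water C was near the median of its array. In Ngp and Camp alike, food F was the lowest food mouse and water E the highest water mouse. Ltf, lactoferrin, was the 1 member lower with food in the 9 mice, by -0.51 ± 0.88. That value came from water A at 11.73, since the other water mice lay at 7.22 to 7.63 and the food mice at 6.50 to 8.70, and in the 7 mice Ltf was 0.52 higher with food. Control A, at 10.52 for Ltf, was the only other mouse of the 14 above 8.70. Water A and control A also had the highest mean levels of the 14 over the airway secretory cell genes, at 11.57 and 11.36.

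Most other neutrophil genes differed less than Ngp and Camp but more evenly. Mmp8, the neutrophil collagenase, was at 6.19, 5.95, 5.77, 5.35 and 5.69 with food and 4.26, 5.21, 4.93 and 4.69 with water, 1.02 ± 0.21 higher with food in the 9 mice and 0.72 ± 0.21 in the 7 mice, again named for groups without overlap. S100a9, a subunit of the calcium-binding protein calprotectin, was at 12.56, 11.85, 11.16, 11.65 and 11.52 with food and 10.43, 10.86, 10.71 and 11.07 with water, a difference of 0.98 and 0.97. Its partner S100a8 was higher by 0.92 and 0.87, with food B at 12.17 and the other food mice at 10.91 to 11.22. For both genes food B was the highest mouse and every food mouse exceeded every water mouse. Of the surface receptors, Trem1, which amplifies inflammatory signals, was 0.78 and 0.70 higher with food without overlap. Clec4d, a C-type lectin that binds microbial glycolipids, was 0.89 and 0.85 higher without overlap, and its relative Clec4e, also called Mincle, 0.86 and 0.75 with overlap. Csf3r, the receptor for the growth factor that drives neutrophil production, was 0.65 and 0.53 higher, and the chemokine receptor Cxcr2 0.40 and 0.35. Mmp9, a gelatinase, differed by 0.19 and 0.43, and Il1r2, the decoy receptor for interleukin-1, by 0.02 and 0.23, both within the spread of the mice.

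**Figure D1:**
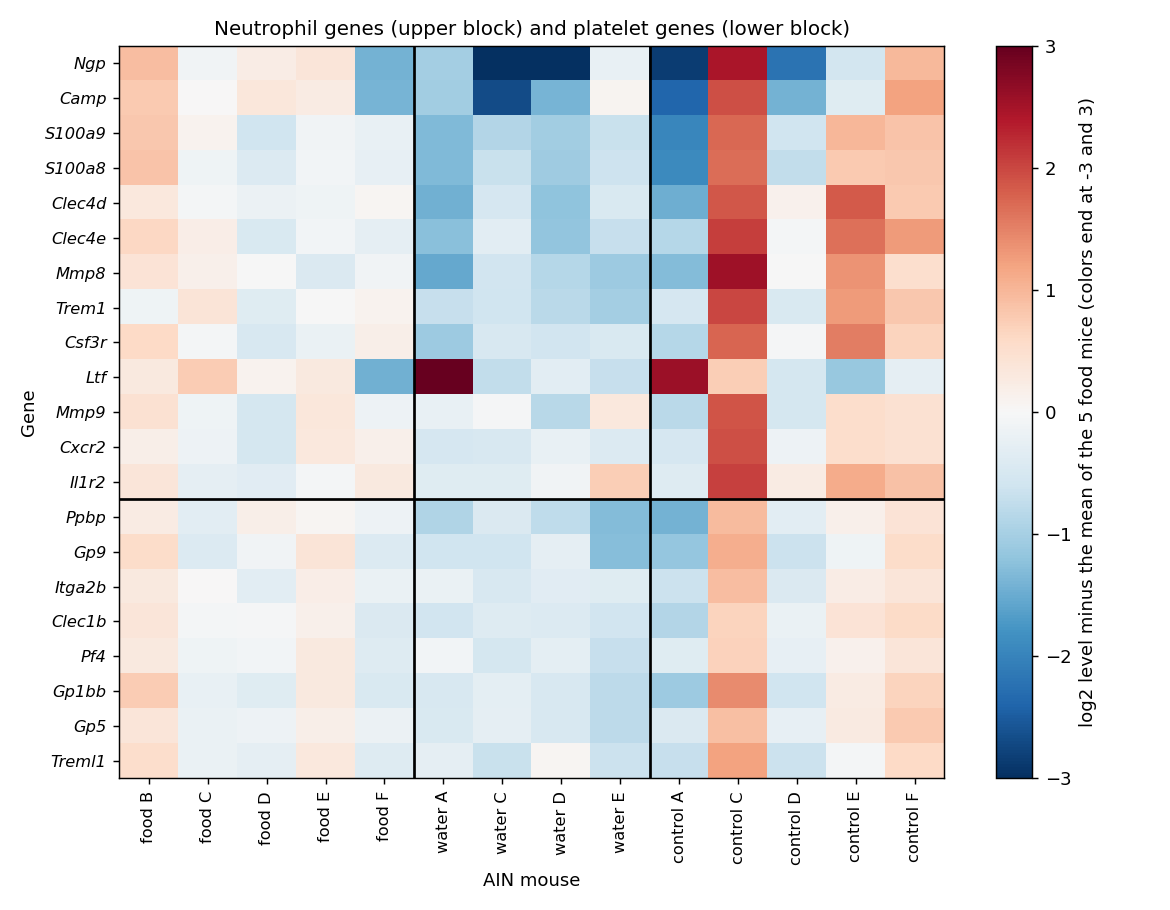
Level of each neutrophil and platelet gene (rows) in each AIN food, water and control mouse (columns), colored as log2 level minus the mean of the 5 food mice, with colors ending at -3 and 3. Most cells of the water mice are below that mean, Ltf in water A being far above it, and the control mice differ widely among themselves.

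Platelet genes were higher with food in 8 of 8 measured members, in the 9 mice and in the 7 mice alike. Their median difference was 0.49 and 0.41, with 6 and 2 of 8 at an unadjusted p below 0.05 and 2 and 3 without overlap, beside 886 and 308 of 18193 genes at that p and 183 and 678 without overlap. The list mean was 8.60, 7.98, 8.03, 8.41 and 7.85 in food mice B to F and 7.73, 7.72, 7.81 and 7.38 in water mice, so all food mice were above all water mice by a narrow margin. Ppbp, the precursor of a platelet chemokine that attracts neutrophils, was at 10.92, 10.36, 10.85, 10.74 and 10.52 with food and 9.78, 10.24, 9.91 and 9.37 with water, a difference of 0.85 ± 0.18 and 0.60 ± 0.18. It too was named for groups without overlap. Gp9, of the von Willebrand factor receptor, was 0.68 and 0.43 higher, its partners Gp5 0.50 and 0.37 and Gp1bb 0.51 and 0.38. Clec1b, the receptor for podoplanin, was 0.49 and 0.41 higher, Pf4, platelet factor 4, 0.39 and 0.40, and Itga2b, the platelet integrin chain, 0.35 and 0.42. Red cell genes, of which 5 of the 9 listed were measured, had medians of -0.09 and 0.06. Their list mean lay at 6.31 to 6.80 in food mice and 6.46 to 6.77 in water mice, so that the groups overlapped. Whether the amount of blood in the lungs differed was not tested.

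Genes outside these lists with the smallest p included 3 more with known roles in platelets. P2ry12, the ADP receptor that clopidogrel blocks, was at 5.67, 5.17, 6.16, 5.64 and 6.18 with food and 4.73, 4.84, 4.52 and 4.57 with water. Every water mouse lay below every food mouse, and the difference was 1.09 ± 0.20 in the 9 mice and 1.08 ± 0.26 in the 7 mice, hardly moved by water A and E. All water values were dim, below log2 5, which limits what the size can tell. Microglia and some macrophages express P2ry12 as well. Rgs18, a regulator of G protein signaling found in platelets and their precursors, was at 6.81 to 7.09 with food and 5.83 to 6.50 with water, 0.78 ± 0.14 and 0.80 ± 0.18 higher. Thbs1, thrombospondin 1 of platelet granules and of matrix, was at 8.30, 8.44, 8.95, 8.21 and 8.28 with food and 6.56, 7.57, 7.73 and 6.12 with water. Its difference of 1.44 ± 0.32 in the 9 mice was 0.78 ± 0.20 without water A and E, the lowest mice, and a further probe set gave 1.13 and 0.81.

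The remaining genes named by the rule in the 9 mice went in both directions. Cd300lb, an activating receptor of myeloid cells, was at 6.33 to 6.66 with food and 5.44 to 6.03 with water, a difference of 0.73 ± 0.13 and 0.74 ± 0.17. Chia1, an acidic chitinase secreted in the lung, was 0.88 and 0.60 higher, and Ctla2b, related to the propeptide of cathepsins, 0.59 and 0.62, both without overlap. Pde4b, a phosphodiesterase that degrades cyclic AMP in leukocytes, was 0.83 and 0.69 higher with a second probe set at 1.13 and 0.81, while its 4 other probe sets, all dimmer, lay between -0.11 and 0.32. In the other direction 5 genes met the rule. Ppan, a factor of ribosome assembly, was -0.52 and -0.43 relative to water, and Pik3ip1, an inhibitor of PI3 kinase abundant in lymphocytes, -0.56 and -0.34, although its dimmer probe set gave 0.04 and -0.03. Adig, adipogenin of fat cells, was at 3.93 to 4.45 with food and 9.30, 4.50, 4.69 and 7.24 with water, in step with the fat markers of water A and E. Tmem79, a membrane protein of skin barrier cells, rested on water A at 7.34 and the channel Panx1 on water E at 8.18, with the other water mice at 5.02 to 5.39 and 6.37 to 6.53.

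**Figure D2:**
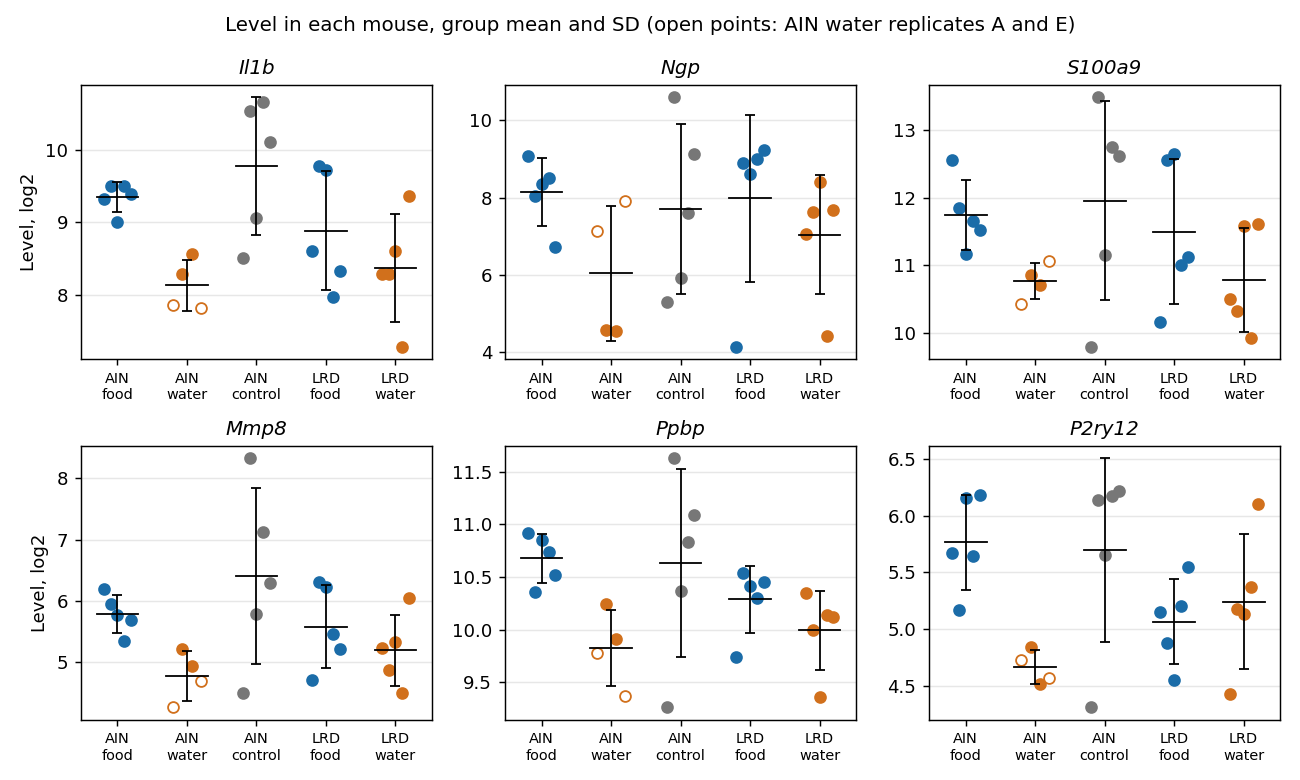
Log2 level of selected genes in each mouse by group (food, water, AIN control and the LRD groups), with 1 point per mouse, lines at each group mean with its SD, and open points for AIN water A and E. All AIN food mice lie above all AIN water mice for Il1b, Mmp8, Ppbp and P2ry12, while the control mice span most of the range.

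Without water A and E the rule named further genes. Muc16, a mucin of mesothelium and airway surface, was at 5.46 to 6.01 with food and 4.97 and 4.71 in water C and D, 0.91 ± 0.18 higher, but water A was at 6.91 and the 9-mouse difference was 0.17 ± 0.38. H2-Q10, a class I molecule mostly known from liver, was likewise 0.74 higher in the 7 mice and -0.55 in the 9, with water A at 8.60. Nr4a3, an inducible nuclear receptor, was at 6.26, 7.24, 7.57, 6.74 and 6.36 with food and 5.86, 5.00, 5.75 and 6.44 with water. Its difference was 1.46 ± 0.36 in the 7 mice and 1.07 ± 0.33 in the 9, though its other probe sets, which were dimmer, gave -0.11 and -0.23 in the 7 mice. Lower with food were Bcdin3d, an RNA methyltransferase, by -0.54, Vapb, a membrane protein of the endoplasmic reticulum, by -0.55, and Zc3h7b, a zinc finger protein that binds RNA, by -0.54. Ppp2r2c, a regulatory subunit of phosphatase 2A, was -0.50, Prdm16, a transcription factor of brown fat, -0.58, and Fam25c -0.86. For Bcdin3d, Fam25c, Vapb, Zc3h7b and Ppp2r2c water D was the higher of the water mice C and D, with Fam25c at 6.96 against 5.91. A dimmer probe set of Vapb gave -0.03 and did not show the difference. Of these 6 genes only Bcdin3d also had an unadjusted p below 0.05 in the 9 mice, at -0.62.

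Interleukin-1 and Toll-like receptor genes had small medians, and differed less in the 7 mice than in the 9. Over 31 measured genes the median was 0.12 in the 9 mice and 0.06 in the 7 mice, with 7 and 1 at an unadjusted p below 0.05, all higher with food, beside 886 and 308 of 18193 genes. With 9 mice the 7 of 31 lies above that background, and with 7 mice the 1 of 31 is near it. In either comparison 2 of the 31 were higher without overlap, beside 183 and 678 of 18193 genes. Il1rn, the antagonist of the interleukin-1 receptor, was at 6.39 to 6.54 with food and 5.66, 6.17, 6.23 and 5.69 with water, without overlap, 0.51 and 0.24 higher. Il1rap, the accessory chain of the receptor, was 0.56 and 0.26 higher and the kinase Irak2 0.48 and 0.26. The receptors Tlr2 and Tlr4 were 0.46 and 0.53 higher in the 9 mice and 0.23 and 0.17 in the 7 mice, and Il1r1, the signaling receptor, 0.44 and 0.05. For all of these the difference was smaller without water A and E, whose list means of 6.98 and 6.81 were the lowest of the 9 mice. Myd88, the adaptor, differed by 0.18 and 0.07 and Nfkbia, the NF-κB inhibitor, by -0.12 and -0.11. Traf6 differed by -0.06 and 0.05 in its brightest probe set and by 0.41 and 0.46 in a dimmer one, so that its probe sets disagreed. Tnf, the tumor necrosis factor gene, was at 3.78 to 4.49 with food and 4.06 to 5.17 with water, where water D was highest. Its food values were all dim, below log2 5. Of other cytokine genes without a place among the named genes, Ccl3, a macrophage chemokine chosen after its values were seen, was 0.74 and 0.47 higher with food.

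Glucocorticoid targets, immediate early genes and heat shock genes had small positive medians. Over 24 glucocorticoid targets it was 0.18 in the 9 mice and 0.23 in the 7 mice, with 8 and 4 at an unadjusted p below 0.05, all higher with food, beside 886 and 308 of 18193 genes. In either comparison 4 of the 24 did not overlap, beside 183 of 18193 genes with 9 mice and 678 with 7. Cebpd, a transcription factor induced by glucocorticoids and cytokines, was at 9.95 to 10.29 with food and 9.66, 9.37, 9.73 and 9.33 with water, 0.52 ± 0.12 and 0.50 ± 0.15 higher without overlap. Tsc22d3, the glucocorticoid-induced leucine zipper, was 0.69 and 0.48 higher, Errfi1, a feedback inhibitor of the EGF receptor, 0.60 and 0.41, and Sult1a1, a sulfotransferase, 0.68 and 0.49. Zbtb16, another gene of this hormone response, was at 5.64 to 6.89 with food and 5.62 to 7.39 with water and differed by -0.11 and -0.05, with all 9 mice spread evenly. The 23 immediate early genes had medians of 0.27 and 0.21, with 6 and 1 higher at that p, and the 1 of 23 is near the background of 308 of 18193. With 7 mice 14 were higher and 9 lower. Of those with the largest differences, Klf4 was 0.64 and 0.32 higher, Dusp1, a phosphatase of MAP kinases, 0.70 and 0.27, Fosl2 0.59 and 0.50 and Atf3 0.74 and 0.47. The 15 heat shock genes had medians of 0.18 and 0.22 with 0 and 1 at that p, and their list mean singled out 1 mouse in each group, food D at 10.50 against 9.83 to 9.90 in the other food mice, and water D at 9.39 against 9.83 to 9.88. Hspa1b, the inducible HSP70, was at 8.41, 9.16, 11.21, 8.19 and 7.87 with food and 7.85, 8.27, 6.81 and 7.82 with water, and its difference of 1.28 ± 0.61 and 1.43 ± 0.80 rested on those mice.

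Genes of arsenic handling, differed little. The median over 17 genes of arsenic uptake, methylation and export was -0.01 in the 9 mice and 0.12 in the 7 mice, with 1 gene higher and 0 lower at an unadjusted p below 0.05 in either, beside 886 higher and 198 lower of 18193 genes with 9 mice and 308 and 169 with 7. As3mt, the arsenite methyltransferase, was at 7.10 ± 0.15 (SD, n = 5) with food and 6.92 ± 0.18 (n = 4) with water, a difference of 0.18 and 0.12. The 16 Nrf2 antioxidant genes had medians of 0.22 and 0.04 and the 10 metallothionein and zinc transport genes 0.08 and 0.07, and Mt1, a metallothionein that metals induce, differed by -0.15 and 0.06.

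Some lung cell type medians moved when water A and E were left out, and others did not. Those of mesothelium (0.26 with 9 mice and 0.21 with 7), smooth muscle (0.11 and 0.16) and airway secretory cells (-0.04 and -0.05) changed little. Endothelial genes had a median of 0.50 in the 9 mice and -0.05 in the 7 mice, with list means of 9.66 and 9.34 in water A and E against 10.48 to 10.61 in all other mice. Pecam1, the endothelial adhesion molecule, was 0.84 and 0.10 higher with food. Alveolar macrophage genes had medians of 0.46 and 0.16 with 6 and 0 of 10 higher at an unadjusted p below 0.05, beside 886 and 308 of 18193 genes. Of the genes the study followed for movement and adhesion, the metalloprotease Adam10 differed by 0.14 and 0.02 and Vcl, the focal adhesion protein vinculin, by 0.37 and -0.06. The GTPase Rac1 differed by 0.31 and -0.04. Scn3b, a sodium channel subunit that the study followed among channels, differed by 0.39 and -0.22. These values are of the brightest probe sets, and dimmer ones gave larger differences. For Adam10 a pair of them gave 0.91 and 0.89 in the 9 mice and 0.50 and 0.44 in the 7 mice, for Vcl 1 gave 1.27 and 0.51, for Scn3b 0.93 and 0.26 and for Rac1 0.40 and 0.20. All of these had an unadjusted p below 0.05 in the 9 mice and none in the 7. The part that foreign tissue had in the lower lung values of water A and E was not tested. Neutrophil and platelet genes had medians of 0.72 and 0.41 without those mice.

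**Figure D3:**
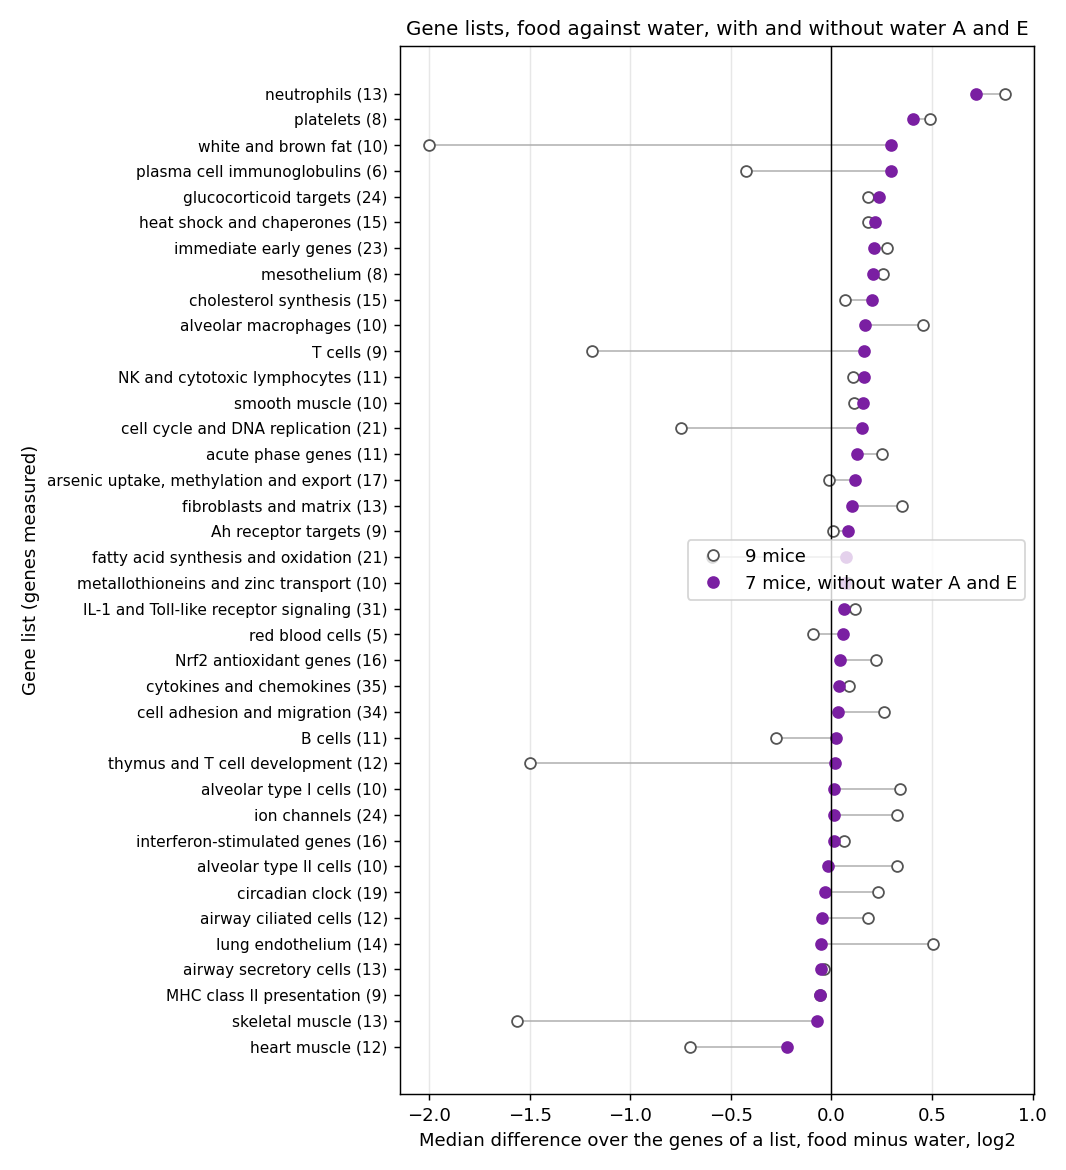
Median difference, food minus water in log2 units, over the measured genes of each list, in the 9 mice and in the 7 mice without water A and E. Neutrophil and platelet genes stay to the right of 0 in both, while fat, thymus, T cell and endothelial genes move to about 0 or across it.

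Arrays fell into 5 batches by the name of the raw array file, with 11 arrays in each over the series and at most 1 mouse of each AIN group compared here. In 4 of the batches a food and a water mouse can be set against each other: food B and water A, food C and water E, food D and water C, and food E and water D. Food F had no partner. Genes named for groups without overlap are higher in the food mouse of every pair by that choice, so only the sizes are informative. They were 0.73 to 1.70 for Il1b, 0.60 to 1.32 for P2ry12, 0.42 to 1.94 for Mmp8 and 0.61 to 1.14 for Ppbp. Ngp was higher by 0.13 to 3.96, the smallest value being that of food C and water E. The median over the neutrophil genes was 1.74, 0.39, 0.27 and 0.94 in the 4 pairs in the order above, and over the platelet genes 0.87, 0.55, 0.38 and 0.61. Every pair thus gave a positive median for both lists, with the largest in the pair that holds water A. These are the same mice, whose list means did not overlap between the routes. Positive signs were therefore largely given, and only the sizes are informative here too.

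**Figure D4:**
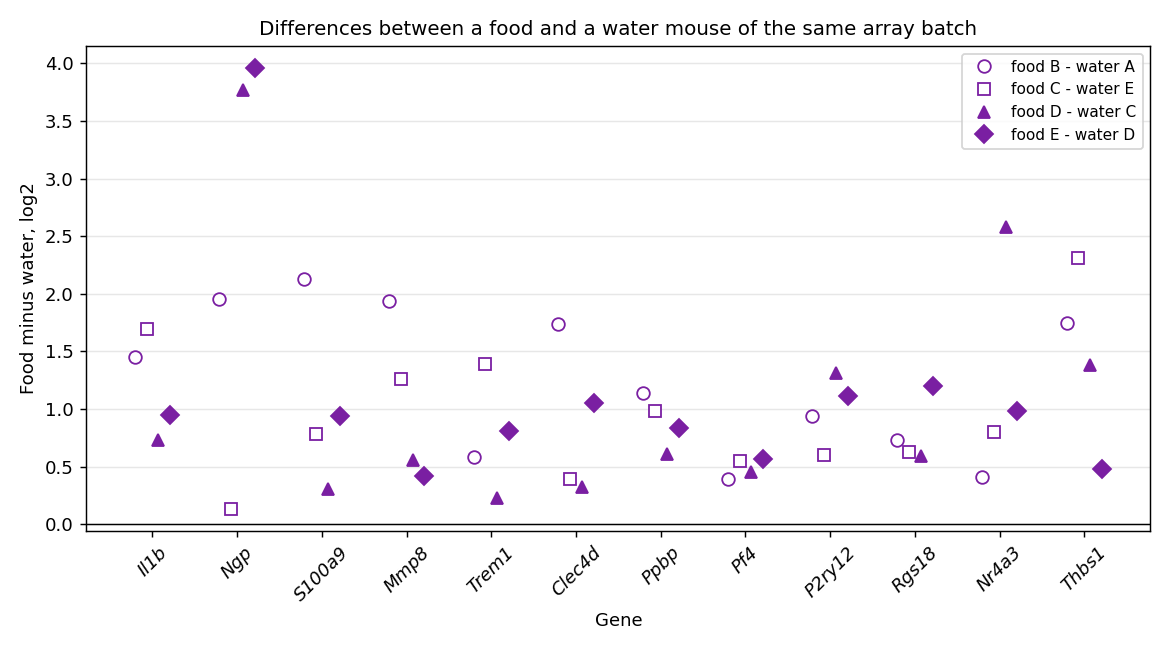
Difference of the food and the water mouse of the same array batch, in log2 units, for selected genes (horizontal axis), with 1 point per pair and open points where the water mouse is A or E. Genes chosen for groups without overlap lie above 0 in every pair by that choice, and Ngp has both the smallest and the largest of the values plotted.

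On LRD-5001 the same contrast gave smaller medians for the neutrophil and platelet genes. With 5 mice in each group, 0 probe sets (0.0%) passed limma's adjusted threshold and 673 (1.49%) were higher with food at an unadjusted p below 0.05. All 13 neutrophil genes were higher with food there, with a median of 0.39 and 0 of 13 at that p, and 7 of 8 platelet genes, with a median of 0.12. Over all genes 9927 of 18193 were higher. The list means of the mice overlapped, unlike on AIN-76A. Neutrophil means were 6.232 to 8.07 with food and 6.04 to 7.595 with water, and platelet means 7.275 to 8.324 and 7.672 to 8.028. No gene of either list was without overlap. Il1b was at 8.61, 9.78, 9.73, 7.97 and 8.33 with food and 8.29, 8.28, 8.61, 7.28 and 9.37 with water on this diet, so that the groups overlapped, and differed by 0.52. Ngp differed by 0.93 and Mmp8 by 0.39. A limma interaction term over all 19 mice tested whether the food and water difference itself differed between the diets, and it called 0 of 45037 probe sets (0.0%), with 1349 at an unadjusted p below 0.05. For P2ry12, which differed by -0.175 on LRD-5001, that term was 1.27, with an unadjusted p of 0.00271 and an adjusted p of 1.00. For Il1b it was 0.70, with an unadjusted p of 0.19 and the same adjusted p. Both genes were named for their AIN difference, which enters this term, so these unadjusted p values are only descriptions. The difference between the diets was thus not resolved for these genes. LRD water C carried thymus genes at 8.10 and LRD food B skeletal muscle genes at 10.36. The neutrophil median was 0.42 without water C and 0.555 without both, and the platelet median 0.17 and 0.38, so that these values depend on those mice.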

How the data were processed

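Lung RNA of each mouse was hybridized to 1 Affymetrix Mouse Genome array. The authors deposited log2 values of 55 arrays, made by robust multiarray average (RMA); the set of arrays that entered each normalization is not given in the sources used here. RMA scales arrays to 1 distribution at the level of single probes, so each value is relative to the other genes of its array. The deposited values still differed somewhat in spread between arrays. Without its 64 control probe sets the table of 45101 gave 45037 for testing; 34945 have 1 gene symbol, and a gene was given by its brightest probe set over the 9 mice.

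Differences of group means were tested with limma 3.58.1 (lmFit, eBayes; R 4.3.3) and Benjamini-Hochberg adjustment over all tested probe sets, threshold 0.05, two-sided, and for single genes by exact permutation over mice, which is not given where a gene was named for groups without overlap, since that choice fixes it. The scripts were tested on simulated data. Gene names followed a rule: those past the threshold, otherwise up to 10 per direction by unadjusted p with a mean above log2 5, a difference of at least 0.5 and no overlap, plus up to 4 of each list and genes the study named. The mice, gene lists and rule were chosen with earlier results of these data known. Alternatives were the rank product, array batch or replicate letter as a block, other scalings, a filter on dim probe sets and leaving out each mouse. Array weights and an intensity trend were also tried. In a further alternative the spread was taken over the AIN control and 100 ppb water mice as well, the latter without replicate B. The letters of replicates do not pair mice. No array signal or depth beyond the deposited values was used, and the number of mice limits the precision. Promoter sequences are RefSeq's, build GRCm38.p6, and symbols were matched for 34741 probe sets by Entrez number.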

Additional observations from a re-analysis of the deposited data

Results flagged for a closer look

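Of 182 sets of values (75 genes and 16 lists, in food and in water mice), 14 (7.69%) held 1 mouse far from the others of its group by Dixon's criterion; chance gives about 1 in 20. In food mice these were Bcdin3d in food F (5.46, others 5.22 to 5.25), S100a8 in food B (12.17, others 10.91 to 11.22), Cebpd in food E (10.29, others 9.95 to 10.02) and the heat shock list level in food D (10.5, others 9.83 to 9.90). Water A accounted for 5: Tmem79 at 7.34 (others 5.02 to 5.39), Ltf at 11.73 (7.22 to 7.63), the muscle genes Acta1 at 12.35 (3.62 to 4.00) and Tnnc2 at 12.3 (3.37 to 4.07), and the skeletal muscle list level at 9.65 (4.03 to 4.37). Water E accounted for 4: Panx1 at 8.18 (6.37 to 6.53), Sult1a1 at 8.44 (9.15 to 9.29), the lymphocyte gene Dntt at 11.69 (3.59 to 4.28) and the thymus list level at 9.77 (4.57 to 5.40). Water D accounted for the heat shock list level at 9.39 (9.83 to 9.88).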

How the results depend on the processing

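The count of called probe sets with 9 mice was 0 under every alternative with limma, leaving out any single mouse included, and 328 by the rank product. With 7 mice it was 1 with array batch as a block, 37 by the rank product, and 0 to 1303 when 1 mouse was left out; the 1303 came without water C, when water D alone stood for its group and was assumed to vary like the food mice. The replicate letter as a block called 0 in each comparison, and the letters did not pair the mice: mice with the same letter correlated at -0.233 to -0.107 in their deviations, mice of the same array batch at 0.079 to 0.348. The LRD and the diet by route comparisons stayed at 0 throughout. List medians that lay beyond the spread of the food mice and turned when water A and E were left out of the 9 mice were those of fat (-2.00 to 0.30), thymus (-1.50 to 0.016), T cells (-1.19 to 0.16), plasma cell immunoglobulins (-0.42 to 0.30), endothelium (0.50 to -0.051), alveolar type II cells (0.32 to -0.015), circadian clock (0.23 to -0.030), fatty acid (-0.60 to 0.074) and cell cycle genes (-0.75 to 0.15). Medians nearer 0 that also changed sign were those of B cells (-0.28 to 0.024), airway ciliated cells (0.18 to -0.046), red blood cells (-0.090 to 0.057) and arsenic handling (-0.011 to 0.12). Leaving out 1 mouse moved the cell cycle median from -1.08 to 0.071 with 9 mice and from -0.029 to 0.41 with 7. The neutrophil median stayed at 0.66 to 0.94 with 9 mice and 0.52 to 0.86 with 7, and the platelet median at 0.36 to 0.57 and 0.30 to 0.50. Batch as a block, quantile scaling and median centring of the lists, and LRD medians without food B were added after seeing the data. With 2 water mice no difference passed limma's main test in the 7 mice, not even 3.58 for Ngp.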
